A study of Mus musculus with 6 samples.

Results

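The replication-dependent histone genes encode the linker histone H1 and the core histones H2A, H2B, H3 and H4. They were taken as all rows of the authors' deposited table of gene symbols that begin with Hist1h, Hist2h, Hist3h or Hist4h, which gave 43 rows for 38 genes, of 20414 rows for 18746 symbols in all. RNA came from entorhinal cortex (EC) of the left or the right side, a cortical gateway between neocortex and hippocampus, of untreated wild-type C57BL/6 mice, all 6 months old. There were 3 Affymetrix Mouse Gene 2.0 ST arrays per side, 6 in all, which the labels call biological replicates without saying whether any mouse gave both sides. Gene symbols stand only in the authors' deposited table, which gives a signed fold and a p-value per row for left versus right, so no histone gene has a value per array, a mean or an SD here. For the same reason the dissected tissue was not checked against the levels of its markers.

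Core histones form the protein spool around which DNA is wound, with H2A paired to H2B and H3 paired to H4, and H1 binds the linker DNA between spools. The genes treated here lie mostly in clusters, have no or few introns, and are transcribed mainly in S phase, when new DNA must be packaged. Their mRNAs typically end in a conserved stem-loop bound by the protein SLBP in place of a poly(A) tail, although some members also give polyadenylated transcripts in cells that no longer divide. Most neurons of the adult cortex do not divide and renew their H3 from the replication-independent variant genes instead.

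All 38 genes were found by Entrez identifier in the RefSeq annotation of GRCm38.p6, where 70 genes carry a Hist name, and the other 32 were not analysed here. RefSeq now lists them under newer symbols, such as H2ac21 for Hist2h2ab, and classes Hist3h2bb-ps and Hist1h2al as transcribed pseudogenes. By class, 4 rows encoded H1, 14 H2A, 10 H2B, 5 H3 and 10 H4. By cluster, 30 rows belonged to Hist1 on chromosome 13, 8 to Hist2 on chromosome 3, 3 to Hist3 on chromosome 11 and 2 to Hist4, the single gene Hist4h4, on chromosome 6. The genes were short in that annotation, with a median length of 487.5 bases.

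A positive fold is taken here to mean more signal in left EC. This coding is likely, since the title line names left before right and 0 rows were at least 2-fold higher in left EC and 9 in right EC in the authors' deposited table. The p given beside a fold is the authors' own and unadjusted. Of the unnamed per-array rows above the median signal, likewise, 0 differed by over 1 on the log2 scale to the left and 9 to the right. The per-array table held log2 signals for 41345 rows, with medians of 7.24 to 7.28 per array and correlations of 0.995 to 0.996 between arrays. limma called 0 of these rows at an adjusted p under 0.05 (smallest adjusted p = 0.516), and 3023 rows (7.31%) had an unadjusted p under 0.05. The median half-width of the 95% interval of a left minus right difference was 0.18 on the log2 scale, a ratio of 1.13, over those rows, which gives the scale on which a row could be resolved with 3 arrays per side. Among them 51.5% of rows above the median signal and 44.1% of the others were higher in right EC. The signal of the histone rows is unknown here, so the part of signal strength in the values below was not tested.

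Histone rows differed little between the sides, and more of them were higher in right EC than in left EC. Of the histone rows in the authors' deposited table, 12 (27.9%) were higher in left EC and 31 (72.1%) in right EC, where 54.1% of all rows were higher in left EC and 45.9% in right EC. The median log2 fold was -0.05 over the histone rows and 0.01 over all rows of the authors' deposited table. All 43 histone rows lay within 1.2-fold either way (97.4% of all rows did) and 35 of them, 81.4%, within 1.1-fold (85.8% of all rows) in the authors' deposited table. A deposited p under 0.05 was found for 1 of the 43 rows, 2.33%, against 8.13% of all rows. That share rests on 1 row and on this threshold. The median deposited p was 0.36 over the histone rows and 0.417 over all rows. With Benjamini-Hochberg adjustment over all 20414 rows, 0 histone rows and 0.0% of all rows passed an adjusted p of 0.05. The count of directions is therefore a description of 43 small folds from the same 6 arrays, which are not independent of each other.

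**Figure D1:**
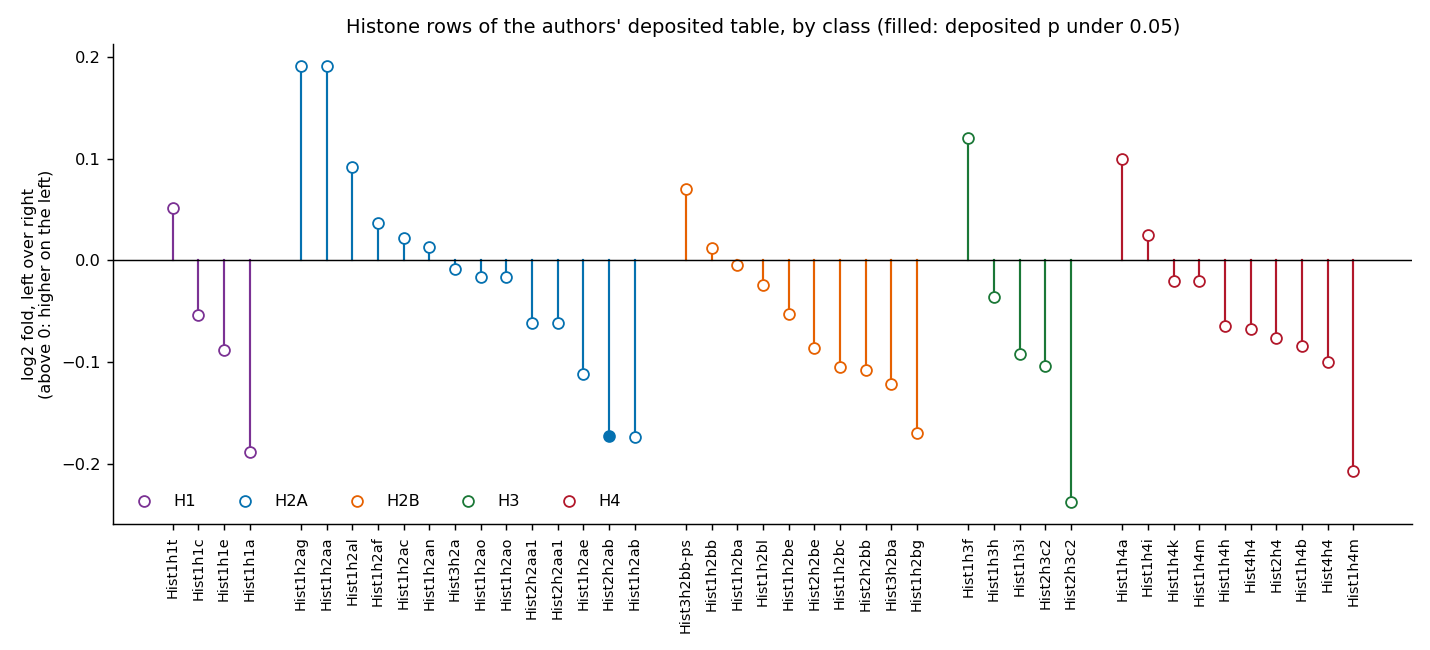
Log2 fold, left over right (vertical axis, above 0 higher in left EC), of each of the 43 histone rows of the authors' deposited table, grouped by class along the horizontal axis; a filled point has a deposited p under 0.05. A single point, Hist2h2ab, is filled, and in every class but H2A at least 3 rows in 4 lie below 0.

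The row with the smallest p was Hist2h2ab, an H2A gene of the Hist2 cluster. It was 1.13-fold higher in right EC (log2 fold -0.17, p = 0.00635) in the authors' deposited table, where it stood at rank 210 of 20414 rows by p. Its p was 0.567 after Benjamini-Hochberg adjustment over all rows, and 1.66% of all rows had a deposited p under 0.01. The next smallest p-values belonged to Hist1h2aa, 1.14-fold higher in left EC (p = 0.0538), and to a row of Hist2h3c2, 1.07-fold higher in right EC (p = 0.0627), in the authors' deposited table. The largest folds were not those with the smallest p: the other row of Hist2h3c2 was 1.18-fold higher in right EC (p = 0.0864) in the authors' deposited table.

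**Figure D2:**
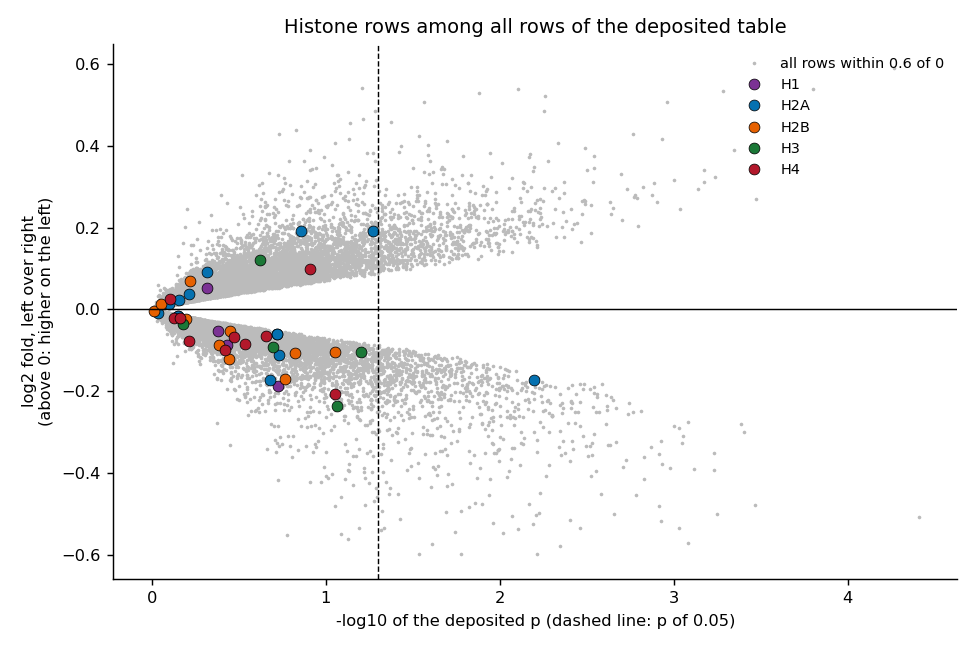
Log2 fold, left over right (vertical axis), against -log10 of the deposited p (horizontal axis) for the 20376 rows of the authors' deposited table within 0.6 of 0 on the log2 scale (grey; 38 rows lie beyond), with the 43 histone rows coloured by class and a dashed line at a p of 0.05. Hist2h2ab is the one histone point right of the line, and the histone points lie inside the cloud of other rows.

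The promoter sequences of 3 histone genes are shown because one belongs to the gene with the smallest p and the others to the H2A and H2B pairs that are transcribed away from each other from shared DNA. RefSeq promoter windows of GRCm38.p6, running from 250 bases before to 50 bases after the annotated start, were found for 32 of the 38 genes (33 windows, since Hist1h2be has 2). Each is printed 5′ to 3′ on the gene's strand, with capitals for every match on either strand to CCAAT, the CCAAT box, to TATAAA, the TATA box, to ATTTGCAT, the octamer bound by Oct-1 in H2B promoters, or to AAACACA, an element known from H1 promoters. No motif lies inside another, although matches may share bases. The windows lie at chr3:96219635-96219934 on the + strand, chr13:23571150-23571449 on the + strand and chr13:23934107-23934406 on the - strand.
Hist2h2ab: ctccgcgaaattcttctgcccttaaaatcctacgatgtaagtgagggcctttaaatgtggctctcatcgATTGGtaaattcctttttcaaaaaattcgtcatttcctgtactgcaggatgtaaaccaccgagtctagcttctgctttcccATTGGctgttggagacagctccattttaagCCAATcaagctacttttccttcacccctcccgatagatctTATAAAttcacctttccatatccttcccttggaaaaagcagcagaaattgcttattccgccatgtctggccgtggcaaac
Hist1h2bg: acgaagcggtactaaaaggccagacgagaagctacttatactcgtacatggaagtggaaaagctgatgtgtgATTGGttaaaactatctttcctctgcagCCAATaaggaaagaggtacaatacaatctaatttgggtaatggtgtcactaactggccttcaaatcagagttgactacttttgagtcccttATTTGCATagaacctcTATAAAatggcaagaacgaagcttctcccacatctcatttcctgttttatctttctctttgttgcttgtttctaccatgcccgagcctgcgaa
Hist1h2ba: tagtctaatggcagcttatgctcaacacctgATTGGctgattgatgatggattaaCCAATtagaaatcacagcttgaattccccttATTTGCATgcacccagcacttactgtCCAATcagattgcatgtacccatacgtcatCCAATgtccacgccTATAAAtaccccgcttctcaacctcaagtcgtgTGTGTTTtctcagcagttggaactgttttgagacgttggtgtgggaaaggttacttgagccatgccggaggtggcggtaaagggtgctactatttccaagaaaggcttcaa

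The Hist1h2bg window shares 279 bases with that of the H2A gene Hist1h2ae on the opposite strand, and the Hist1h2ba window shares 220 bases with that of the H2A gene Hist1h2aa. The octamer ATTTGCAT was found in 5 of 8 H2B windows and 5 of 11 H2A windows, in 0 of 4 H1, 0 of 3 H3 and 0 of 7 H4 windows, and in 1.74% of the 32851 promoter windows of the table. Matches on either strand were counted, so those in shared bases count in both windows. The octamer of each pair with shared bases thus counts once for H2B and once for H2A, and both genes enter the counts by side below. CCAAT was found in all 26 windows of H1, H2A, H2B and H3 genes but in 1 of 7 H4 windows, against 37.4% of all windows. TATAAA was found in 19 of 33 histone windows, 57.6%, against 13.6% of all windows. AAACACA was found in 3 of 4 H1, 2 of 11 H2A, 1 of 8 H2B, 0 of 3 H3 and 0 of 7 H4 windows, and in 7.18% of all windows. Of the H2A and H2B genes with the octamer 3 were higher in left EC and 7 in right EC, and of those without it 3 were higher in left EC and 5 in right EC, in the authors' deposited table. CCAAT was thus rarer in H4 windows than in those of the other classes and the octamer was found only in H2A and H2B windows, whereas TATAAA was found in every class, in 2 of 4 H1, 7 of 11 H2A, 4 of 8 H2B, 2 of 3 H3 and 4 of 7 H4 windows. H2A and H2B genes with and without the octamer were both found on either side.

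The linker histones were represented by Hist1h1a, Hist1h1c, Hist1h1e and Hist1h1t. Hist1h1a, which encodes H1.1, was 1.14-fold higher in right EC (log2 fold -0.19, p = 0.188) in the authors' deposited table. Hist1h1e, which encodes H1.4, was 1.06-fold higher in right EC (p = 0.369) in the authors' deposited table. Hist1h1c, which encodes H1.2, was 1.04-fold higher in right EC (p = 0.417) in the authors' deposited table. These are the somatic H1 genes of the set, and all were higher in right EC by amounts that did not pass a test. Hist1h1t, the testis-specific H1t, was the one H1 gene higher in left EC, by 1.04-fold (p = 0.483) in the authors' deposited table.

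The H2A genes were the most evenly divided class, with 6 rows higher in left EC and 8 in right EC and a median log2 fold of -0.01 in the authors' deposited table. The SD over their 14 log2 folds was 0.11, against 0.10 over the 4 of H1, 0.07 over the 10 of H2B, 0.13 over the 5 of H3 and 0.08 over the 10 of H4, in the authors' deposited table. At the left end stood Hist1h2ag and Hist1h2aa, each 1.14-fold higher in left EC (p = 0.139 and 0.0538), in the authors' deposited table. Hist1h2aa encodes the testis-specific H2A. At the right end stood Hist1h2ab (p = 0.208) and Hist2h2ab, each 1.13-fold higher in right EC, and Hist1h2ae, 1.08-fold (p = 0.185), in the authors' deposited table. Hist1h2ac, Hist1h2af, Hist1h2an and Hist3h2a were all within 1.03-fold of equality, with deposited p-values from 0.613 to 0.927 in the authors' deposited table. The pseudogene row Hist1h2al was 1.07-fold higher in left EC (p = 0.483) in the authors' deposited table. Within Hist1 the H2A rows were 6 higher in left EC and 4 in right EC, and in Hist2 0 and 3, in the authors' deposited table.

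The H2B rows were 2 higher in left EC and 8 in right EC, with a median log2 fold of -0.07 in the authors' deposited table. The largest fold was that of Hist1h2bg, 1.13-fold higher in right EC (p = 0.171), and the smallest p that of Hist1h2bc, 1.08-fold higher in right EC (p = 0.0883), in the authors' deposited table. Hist2h2bb was 1.08-fold (p = 0.150) and Hist3h2ba 1.09-fold (p = 0.36) higher in right EC in the authors' deposited table. Hist2h2be, which encodes the H2B variant H2BE known from mouse olfactory sensory neurons, was 1.06-fold higher in right EC (p = 0.414) in the authors' deposited table. Hist1h2be was 1.04-fold higher in right EC (p = 0.353), Hist1h2bl 1.02-fold (p = 0.636) and the testis-specific Hist1h2ba 1.003-fold (p = 0.97) in the authors' deposited table. Higher in left EC were the pseudogene Hist3h2bb-ps, by 1.05-fold (p = 0.606), and Hist1h2bb, by 1.01-fold (p = 0.885), in the authors' deposited table. Of the 10 H2B rows 0 had a deposited p under 0.05, against 8.13% of all rows, and so few rows cannot be told apart from that share.

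The H3 genes had 1 row higher in left EC and 4 in right EC. Hist1h3f was 1.09-fold higher in left EC (p = 0.239) in the authors' deposited table. Hist1h3i was 1.07-fold (p = 0.202) and Hist1h3h 1.03-fold (p = 0.66) higher in right EC in the authors' deposited table. With both rows of Hist2h3c2 the H3 median was a log2 fold of -0.09, the lowest of the 5 classes, in the authors' deposited table. The medians of H1, H2B and H4 were each -0.07 there. Hist2h3c2 gave 2 of the 5 H3 rows, and the rank of H3 depends on counting both.

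The H4 genes had 2 rows higher in left EC and 8 in right EC, with a median log2 fold of -0.07 in the authors' deposited table. Hist1h4a was 1.07-fold (p = 0.123) and Hist1h4i 1.02-fold (p = 0.781) higher in left EC in the authors' deposited table. Hist1h4b was 1.06-fold (p = 0.29), Hist1h4h 1.05-fold (p = 0.222) and Hist1h4k 1.01-fold (p = 0.686) higher in right EC in the authors' deposited table. Hist2h4 was 1.05-fold higher in right EC (p = 0.613) in the authors' deposited table. H4 genes are known to encode largely the same protein, and their folds differed in size and side.

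Repeated and near-identical copies limit how far the rows can be told apart. Of the 38 genes 5 had 2 rows each. Both rows of Hist1h2ao, 1.01-fold higher in right EC (p = 0.709), held identical values, as did both rows of Hist2h2aa1, 1.04-fold higher in right EC (p = 0.19), in the authors' deposited table. These 4 rows were 9.3% of the histone rows, against 454 rows (2.22%) with repeated values in the whole of the authors' deposited table. Repeated values crossed gene symbols in 6 of 157 such sets over all rows, and in 0 of the 2 histone sets. The other genes with 2 rows gave unlike values on the same side. Hist1h4m was 1.15-fold (p = 0.0882) in one row and 1.01-fold (p = 0.747) in the other, both higher in right EC, in the authors' deposited table. Hist4h4 was 1.07-fold (p = 0.381) and 1.05-fold (p = 0.337) higher in right EC in its rows of the authors' deposited table.

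RefSeq lists some members as synonyms of each other, and values of such copies are uncertain where probes could read both. The linked H2B copies Hist1h2bc, Hist1h2be and Hist1h2bg were all higher in right EC, with a median log2 fold of -0.10 in the authors' deposited table. The linked H3 copies Hist1h3h and Hist1h3i were also both higher in right EC, whereas Hist1h3f and Hist2h3c2 lay on opposite sides. Of 8 rows from 7 linked H4 genes, 2 were higher in left EC and 6 in right EC in the authors' deposited table. The sequences of the probes were not used here, so how far a row also reports a sister copy was not tested.

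By position, the Hist2 cluster stood wholly on one side. Its 8 rows from 6 genes (Hist2h2ab, Hist2h2be, Hist2h3c2, Hist2h2aa1, Hist2h4 and Hist2h2bb) were all higher in right EC, with a median log2 fold of -0.09 in the authors' deposited table. There 72.1% of the histone rows and 45.9% of all rows were higher in right EC. Of the 8 rows 1, Hist2h2ab, had a deposited p under 0.05. The Hist1 cluster was mixed, with 11 rows higher in left EC and 19 in right EC and a median of -0.02 in the authors' deposited table. Hist3 had 1 row higher in left EC and 2 in right EC, with Hist3h2a 1.01-fold higher in right EC (p = 0.927), and both rows of Hist4h4 were higher in right EC, in the authors' deposited table. The difference between Hist2 and Hist1 was not tested, since the table has no values per array. Among 12 pairs of histone genes that are next to each other in the annotation, 4 lay on the same side and 8 on opposite sides. How often histone genes that are not neighbours lie on opposite sides was not counted, so these counts have no reference. In some of the opposite pairs a side rests on a fold close to 1, as for Hist1h2ba (1.003-fold), Hist1h2bb (1.008-fold) and Hist1h2an (1.009-fold). Of the pairs with a shared promoter, Hist1h2ae and Hist1h2bg were both higher in right EC, whereas Hist1h2aa was 1.14-fold higher in left EC and its partner Hist1h2ba was 1.003-fold higher in right EC in the authors' deposited table.

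**Figure D3:**
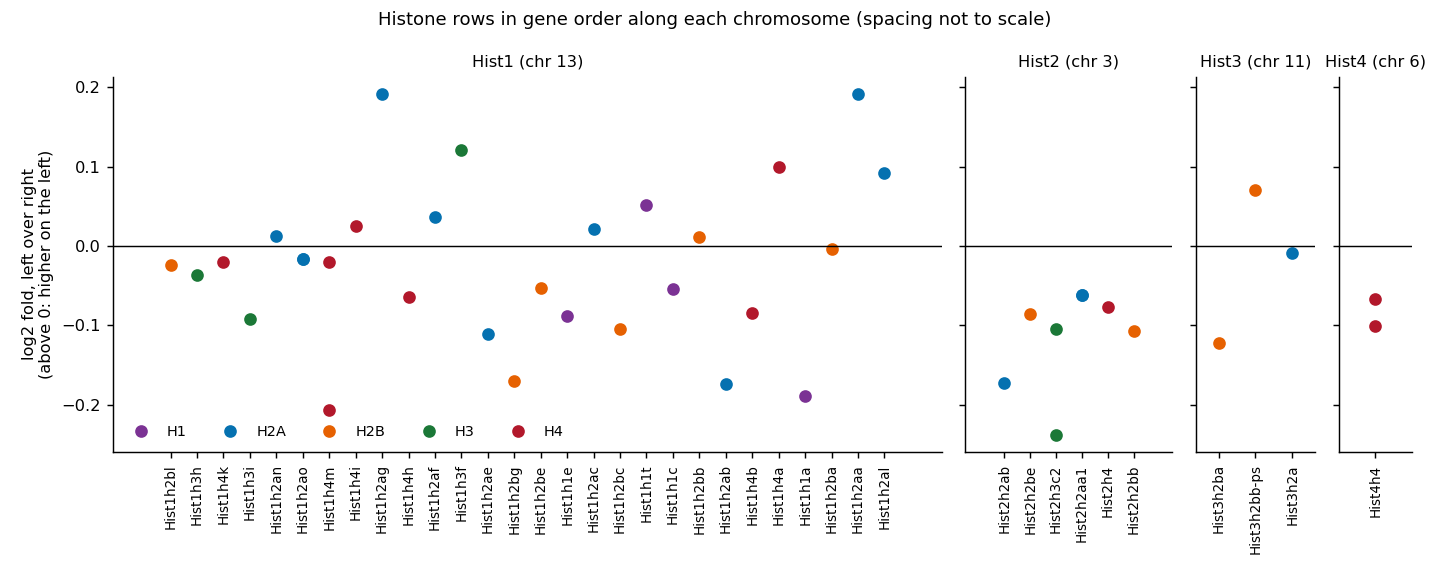
Log2 fold, left over right (vertical axis), of the histone rows of the authors' deposited table in gene order along chromosomes 13, 3, 11 and 6 (horizontal axis, spacing not to scale), coloured by class. All 8 points of Hist2 lie below 0, whereas those of Hist1 are 11 above and 19 below.

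Genes that mark dividing cells were mostly higher in left EC by small amounts, unlike the histone rows, although this difference was not tested. Of 25 rows, for 24 of 36 listed S phase and proliferation genes, 21 were higher in left EC and 4 in right EC, with a median log2 fold of 0.03 in the authors' deposited table. Over all rows 54.1% were higher in left EC. Of the 25 rows 23 lay within 1.1-fold either way. Their signal is unknown here, so the part of signal strength in these directions was not tested. Tyms, the thymidylate synthase, was 1.12-fold higher in left EC (p = 0.0435) in the authors' deposited table. Rrm2, a subunit of ribonucleotide reductase, was 1.13-fold (p = 0.0423) in one row and 1.03-fold (p = 0.452) in the other, both higher in left EC, in the authors' deposited table. The proliferation antigen gene Mki67 was 1.01-fold (p = 0.835) and the topoisomerase gene Top2a 1.04-fold (p = 0.391) higher in left EC in the authors' deposited table. Of these 25 rows 2 had a deposited p under 0.05, both higher in left EC, where 3.81% of all rows had such a p and were higher in left EC and 4.33% in right EC.

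Genes that make and process histone mRNA differed little. Of 17 rows 12 were higher in left EC and 5 in right EC, with a median log2 fold of 0.03, in the authors' deposited table, where 54.1% of all rows were higher in left EC. A deposited p under 0.05 was found for 0 of the 17 rows, against 8.13% of all rows. The list is too short to be told apart from that share. Npat, the coactivator of histone gene transcription, was 1.01-fold higher in left EC (p = 0.817) in the authors' deposited table. Lsm10, a subunit of the U7 particle that cuts histone pre-mRNA, was 1.05-fold higher in right EC (p = 0.158), and its partner Lsm11 was 1.04-fold higher in left EC (p = 0.36), in the authors' deposited table. The endonuclease gene Cpsf3 was 1.04-fold higher in left EC (p = 0.164), and Eri1, an exonuclease that trims the stem-loop end, 1.06-fold (p = 0.186), in the authors' deposited table. Slbp was not analysed here.

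The replication-independent and variant histones had 12 rows higher in left EC and 7 in right EC, with a median log2 fold of 0.01 in the authors' deposited table. Cenpa, the H3 variant of centromeres, was 1.19-fold higher in left EC (p = 0.00225), and the spermatid gene Hils1 1.15-fold (p = 0.0395), in the authors' deposited table. These 2 rows were the ones with a deposited p under 0.05 among 19, 10.5%, which is near the 8.13% of all rows. H3f3b, which encodes the replacement histone H3.3, had 4 rows from 1.002-fold to 1.01-fold higher in left EC in the authors' deposited table. The other H3.3 gene, H3f3a, had a row 1.05-fold higher in left EC (p = 0.295) and rows 1.05-fold (p = 0.143) and 1.09-fold (p = 0.176) higher in right EC in the authors' deposited table. H1f0, the linker histone of cells that have stopped dividing, was 1.02-fold higher in left EC (p = 0.502) in the authors' deposited table. Histone chaperones, which carry histones to DNA, had 10 rows higher in left EC and 6 in right EC and a median log2 fold of 0.02 in the authors' deposited table. Of these 16 rows 0 had a deposited p under 0.05, against 8.13% of all rows, and the list is too short to be told apart from that share.

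**Figure D4:**
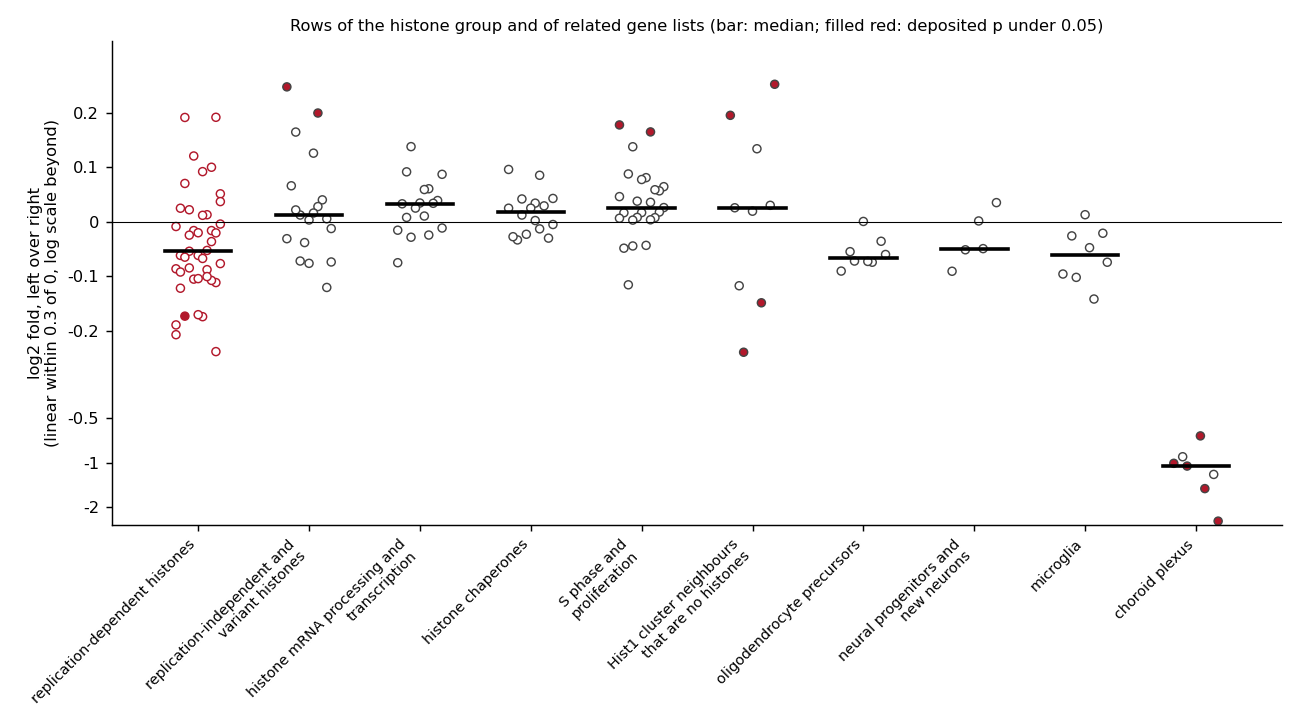
Log2 fold, left over right (vertical axis, linear within 0.3 of 0 and logarithmic beyond), of each row of the histone group and of related lists in the authors' deposited table; bars are medians and filled points have a deposited p under 0.05. The histone median is -0.05, those of the S phase, chaperone, processing and variant lists lie between 0.01 and 0.03, and the choroid plexus rows lie far below.

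Markers of cell types were counted beside the histone rows, and their part in the histone folds was not tested. Choroid plexus genes, 7 of 8 listed, had 0 rows higher in left EC and 7 in right EC, with a median log2 fold of -1.05, in the authors' deposited table. Of these 7 rows 5 (71.4%) had a deposited p under 0.05, against 8.13% of all rows. Oligodendrocyte precursor genes, of the main dividing glia of the adult brain, had 1 row higher in left EC and 7 in right EC and a median of -0.07 in the authors' deposited table. The precursor gene Pdgfra was 1.06-fold higher in right EC (p = 0.121) in the authors' deposited table. Microglial genes had 1 row higher in left EC and 7 in right EC (median log2 fold -0.06), and neural progenitor and new neuron genes, 5 of 9 listed, 2 and 3 (median -0.05), in the authors' deposited table. Entorhinal and excitatory neuron genes, 5 of 6 listed, had 5 rows higher in left EC and 0 in right EC (median 0.10) in the authors' deposited table. Red cell genes had 4 and 0 (median 0.18) there, from 3 of 8 listed genes, with deposited p-values from 0.232 to 0.802. Endothelial genes, 4 of 6 listed, were 2 and 2, with a median of -0.01, in the authors' deposited table. Outside the choroid plexus list, 1 row of these lists had a deposited p under 0.05. It was the excitatory neuron gene Tbr1, 1.13-fold higher in left EC (p = 0.0346) in the authors' deposited table. In dissected tissue, fewer cells of a type and less RNA per cell cannot be told apart.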

How the data were processed

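The assay was the Affymetrix Mouse Gene 2.0 ST array on total RNA, per the series description. The deposited per-array table was read as log2 signal, a scale inferred from its values, and how it was summarized and normalized is not stated. Per the file headers, the authors' table of all genes gives a p-value and a signed fold for left versus right, where negative folds are reciprocal ratios with the sign turned. The authors' software was Ingenuity iReport, per the series description. Its test is not given in the sources at hand, nor is the primer used to copy the RNA, which bears on mRNAs without a poly(A) tail. The per-array row IDs were not paired with genes.

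Folds were turned into log2 folds and p-values adjusted by Benjamini-Hochberg over 20414 rows in Python 3.11.15 (scipy 1.17.1, pandas 2.3.3). Per-array rows were tested in R 4.3.3 by limma 3.58.1, using lmFit and eBayes with side as the one term and two-sided p-values. Both steps were tested on simulated data. Groups and replicate numbers came from the sample titles. The labels do not say that samples come from separate mice, so limma p-values measure only the spread between these arrays. The number of arrays limits the precision.

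All members are named. For further lists, the rule took up to 3 genes by smallest p and others by role. Members and lists were chosen with earlier results of these data known, and lists are described by counts and medians with no test. Alternatives covered the p threshold, repeated rows, membership, normalization, filtering, variance models, a replicate block and leaving out each array. Promoter sequences are those of RefSeq for GRCm38.p6. Figures were drawn with matplotlib 3.10.9.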

Additional observations from a re-analysis of the deposited data

How the results depend on the processing

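Of the 43 histone rows 12 were higher in left EC and 31 in right EC. The numbers were 12 and 29 with identical rows counted once, 12 and 26 with rows of a symbol averaged, 11 and 31 without Hist3h2bb-ps, and 24 and 38 with the variant histones added, where 3 rows had a deposited p under 0.05. With the Hist1 cluster alone they were 11 and 19 of 30 rows, and 0 rows had a deposited p under 0.05. Apart from that, 1 row, Hist2h2ab, had a p under 0.05, and also under 0.01. The median log2 fold of -0.054 was -0.022 with the variants added, -0.020 for Hist1 alone, -0.058 without Hist3h2bb-ps, and -0.061 without both pseudogenes, without the testis-specific genes or with folds centred on the median of all rows. The last 3 of these and the Hist1 subset were chosen after the data were seen, and the subsets differ by construction. No histone value could be recomputed without an array.

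limma called 0 per-array rows in every alternative run. The unadjusted count of 3023 (1255 higher in left EC, 1768 in right EC) was 1808, with 572 higher in left EC, when limma was given only rows brighter than the median. Of those same rows, 321 higher in left EC and 873 in right EC had such a p when all rows were fitted together. These runs differ only in the rows from which limma estimated the variance that it shares between rows. The count was 2104 to 3829 when 1 array was left out, with 862 to 1952 higher in left EC and 1242 to 1877 in right EC. Without right replicate 2 there were 1952 higher in left EC and 1877 in right EC. With the replicate block, numbers that the labels do not tie to mice, the count was 2790 (correlations of same-numbered deviations -0.09 to 0.05), so the numbers were not taken as pairs. With quantile normalization 1558 rows were higher in left EC and 1691 in right EC, with robust eBayes and an intensity trend 1167 and 2072, and with arrays centred 1369 and 1592.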

Other observations

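Genes that lie in or beside the Hist1 cluster but encode no histone were described beside the histone rows. Of 9 such rows, for 9 of 11 listed genes, 6 were higher in left EC and 3 in right EC in the authors' deposited table, and 4 (44.4%) had a deposited p under 0.05, against 8.13% of all rows and 2.33% of the histone rows. In left EC, the transporter gene Slc17a1 was 1.14-fold higher (p = 0.00898) and Prss16, a thymic serine protease gene, 1.19-fold (p = 0.0272) in the authors' deposited table. In right EC, Lrrc16a, a regulator of actin capping, was 1.11-fold higher (p = 0.00914) and the calcium-binding protein gene Scgn 1.18-fold (p = 0.0224) in the authors' deposited table. With Benjamini-Hochberg adjustment over all rows 0 of the 9 passed. The list was described, not tested against the histone rows.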
